A study of Mus musculus with 96 samples.

Results

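The miR-148 and miR-152 family was followed through 6 mature miRNAs, mmu-miR-148a-3p, mmu-miR-148a-5p, mmu-miR-148b-3p, mmu-miR-148b-5p, mmu-miR-152-3p and mmu-miR-152-5p, out of the 1978 mature miRNAs that the count tables list, of which 1561 had a count in at least 1 library. The rows were found by these names. The family was selected on a measured value of these libraries, the fall of miR-148a-3p in cardiomyocytes at D14 against D0, and the paralogs and opposite arms came in by name. The levels of miR-148a-3p in cardiomyocytes, and the D14 changes of every member in those cells, are therefore given as a description without a test. The other days, members and cell types were tested.

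Small RNA was sequenced from cells isolated from the hearts of male C57Bl/6J mice aged 12 to 14 weeks. Myocardial infarction (MI) was produced by tying off the left anterior descending coronary artery for good, and hearts were taken at D1, D3, D7, D14 and D28, while D0 hearts had no MI. Cardiomyocytes (CMs) came from centrifugation, endothelial cells (ECs) from anti-CD144 beads, fibroblasts (FBs) from brief plating and hematopoietic cells (HCs) from anti-CD45 beads. Each of the 24 groups of cell type and day holds 4 libraries, 96 in all, and each library holds the pooled RNA of 3 mice, or of 2 if one was lacking. No allele or drug separates the groups. CM libraries were made from 500 ng of RNA with 14 PCR cycles, EC libraries from 50 ng with 16, and FB and HC libraries from 150 ng with 15, in batches by cell type, so that cell type, input, cycles and library batch cannot be told apart.

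A miRNA gene is transcribed as a hairpin, and the enzyme Dicer cuts from it a short duplex whose strands are named the 5p and the 3p arm. The strand kept by an Argonaute protein binds messenger RNAs mainly through its seed, bases 2 to 8 from its 5′ end, and lowers their stability and translation. In this family the 3p arms are the usual guide strands and are known to repress the maintenance DNA methyltransferase Dnmt1. miR-148a-3p is well known as an abundant miRNA of liver, where it represses the low-density lipoprotein receptor, and it also acts in B cells.

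The 3p sequences are shown because they tie the 3 paralogs together, with the seed in capitals (RefSeq, GRCm38.p6, read from 5′ to 3′).
miR-148a-3p: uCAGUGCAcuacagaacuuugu
miR-148b-3p: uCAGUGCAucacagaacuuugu
miR-152-3p: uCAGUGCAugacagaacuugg
All 3 carry the seed CAGUGCA, which 3 of the 1679 mature miRNAs in the RefSeq table hold, none of them outside the family. Counted from the 5′ end, miR-148a-3p and miR-148b-3p differ by C9U and U10C, miR-148a-3p and miR-152-3p by C9U, U10G and U20G over 21 shared positions, and miR-148b-3p and miR-152-3p by C10G and U20G. With so few differing bases, reads carrying an error at one of them could have been counted for a paralog, and the mature counts do not show how many.

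The 5p arms are shown for contrast, since they do not share one seed.
miR-148a-5p: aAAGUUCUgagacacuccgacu
miR-148b-5p: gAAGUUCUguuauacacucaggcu
miR-152-5p: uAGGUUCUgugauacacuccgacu
The seed of miR-148a-5p and miR-148b-5p is AAGUUCU and that of miR-152-5p is AGGUUCU. The genes lie on 3 chromosomes. Mir148a (chr6:51269812-51269910, minus strand, with miR-148a-3p at chr6:51269829-51269850) overlaps no annotated gene, and the nearest protein-coding gene, Nfe2l3, is 162760 bp away (GENCODE vM21). Mir148b (chr15:103285125-103285221, plus strand, miR-148b-3p at chr15:103285185-103285206) lies in an intron of Copz1 and Mir152 (chr11:96850393-96850465, plus strand, miR-152-3p at chr11:96850439-96850459) in an intron of Copz2, each on its host's strand and clear of its exons. Copz1 and Copz2 encode the zeta subunits of the COPI vesicle coat.

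Library depth ranged from 3327351 to 24279105 mature miRNA counts in CMs, from 525651 to 29037628 in ECs, from 2217588 to 65588543 in FBs and from 18286 to 29504666 in HCs. The lowest total belongs to replicate 3 of HCs at D0, which held 0 counts of each 5p arm, a count that allows up to 164 CPM per arm and covers counting error only. Levels are given in CPM, the count of a miRNA scaled to a common total of mature miRNA counts per library. Where libraries are said to lie apart in CPM, the share of all miRNAs that did so was not counted. Of the 13 marker miRNAs of the 4 cell types, 13 had their highest mean in the cell type they mark. The HC marker miR-150-5p was nearly level between HCs and ECs, with means of 2586 and 2544 CPM. No list of markers had a member at 0 in all libraries of a group. The CM-marker sum nevertheless reached medians of 103948 CPM in ECs and 110332 CPM in HCs at D0, against 662099 in CMs. In bulk libraries a share of cells and the RNA per cell cannot be told apart.

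Across cell types, the 3p arm of miR-148a was the leading member of the family everywhere, and each paralog had its own order of cell types. Mean CPM over all days was highest in FBs for miR-152-3p and in HCs for miR-148b-3p, and the FB and CM means of miR-148a-3p were the highest of that arm. miR-148a-3p had lowest 6557, median 11894 and highest 84068 CPM over the 24 CM libraries, lowest 4048, median 6922 and highest 14553 in ECs, lowest 9204, median 16867 and highest 50802 in FBs and lowest 5547, median 10943 and highest 28118 in HCs. miR-148b-3p had lowest 388, median 489.6 and highest 660.0 CPM in CMs, lowest 384, median 668 and highest 1111 in ECs, lowest 668, median 1037 and highest 1378 in FBs and lowest 1226, median 1988 and highest 3368 in HCs. For miR-152-3p, CMs had lowest 154, median 873 and highest 1149.6 CPM, ECs lowest 1391, median 2978 and highest 3672, FBs lowest 3276, median 5252 and highest 7179 and HCs lowest 928, median 1772 and highest 2455. For miR-152-3p every FB library lay above every CM and HC library.

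**Figure D1:**
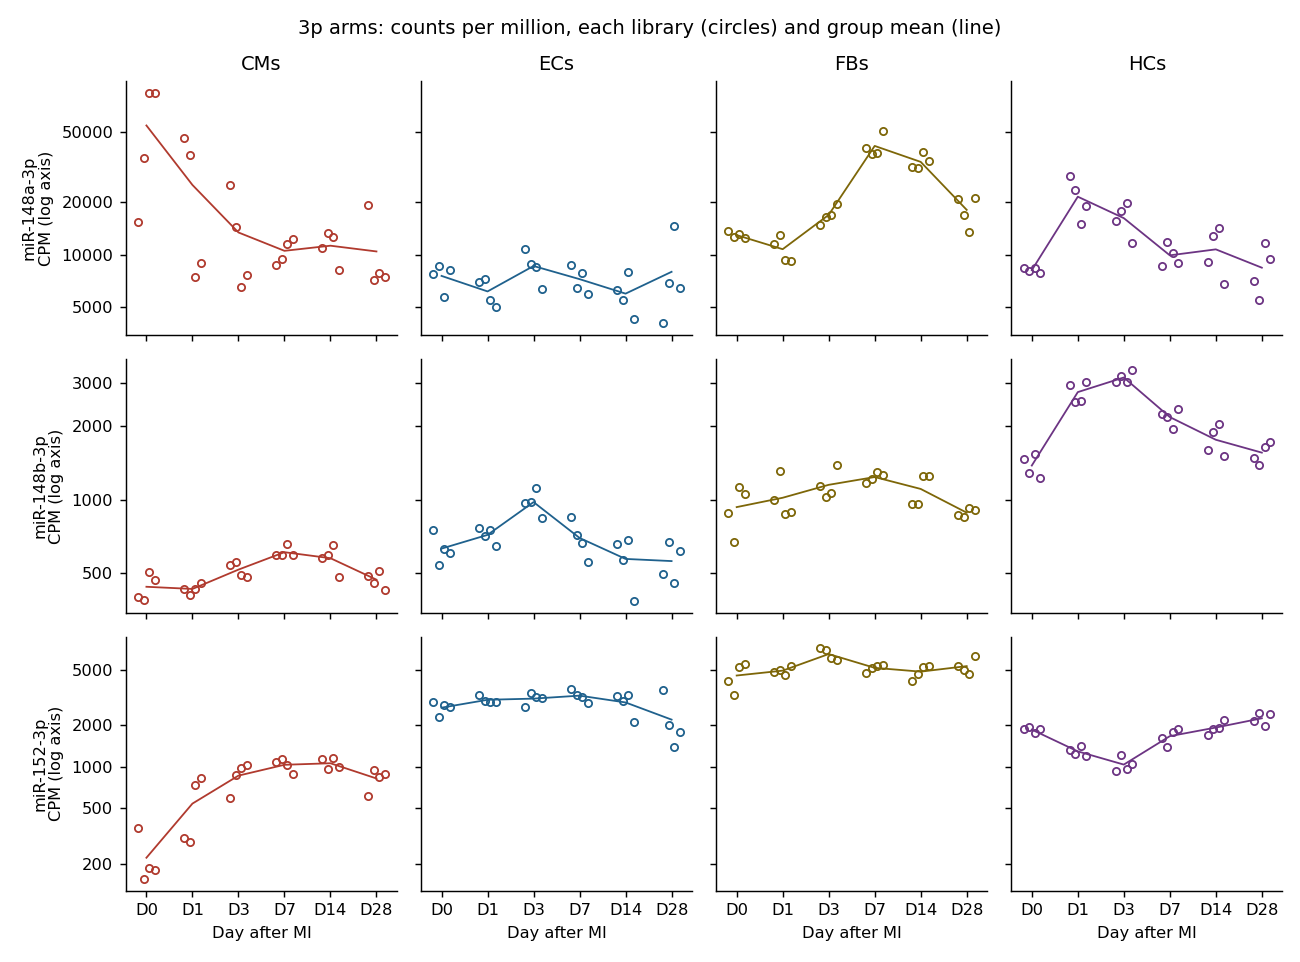
CPM (log axis) of the 3p arms by day after MI, a row per arm and a column per cell type, with a circle for each of 4 libraries per day and a line through the group means. The CM panel of miR-148a-3p falls from a mean of 54572 at D0, the FB panel peaks at 41714 at D7, and in HCs miR-148b-3p and miR-152-3p move in opposite directions at D3.

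By rank of group mean, miR-148a-3p stood at places 3 to 24 of all mature miRNAs in CMs, 23 to 29 in ECs, 8 to 25 in FBs and 14 to 28 in HCs over the 6 days. miR-152-3p stood highest in FBs, at places 29 to 37, and lowest in HCs, at 57 to 75. The 5p arms were far down in every cell type, between 138 and 399. Under the edgeR quasi-likelihood test on all 96 libraries with TMM scaling, which sets libraries on a scale where most miRNAs do not differ, 17 of the 18 differences between ECs, FBs and HCs (6 arms, 3 pairs, mean over the 6 days) passed a Benjamini-Hochberg adjusted p of 0.05. The share of all 712 miRNAs tested that passed was 71.8% for ECs against FBs, 77.7% for ECs against HCs and 85.7% for FBs against HCs, so that a family nearly fully called is close to this background.

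Among these pairs, all 6 arms were lower in ECs than in FBs, with log2 differences from -0.46 ± 0.092 (SE) for miR-148b-3p to -2.06 ± 0.15 for miR-148a-5p. FBs exceeded HCs in both arms of miR-152 and miR-148a, by 2.30 ± 0.092 for miR-152-3p and 1.39 ± 0.17 for miR-148a-3p, and both arms of miR-148b were higher in HCs, the 3p arm by a FB minus HC difference of -0.33 ± 0.091 (edgeR adjusted p = 0.00076). Between ECs and HCs, both arms of miR-152 were higher in ECs, the 3p arm by 1.57 ± 0.09, while miR-148a-5p and both arms of miR-148b were lower, miR-148b-3p by 0.79 ± 0.092. The 1 pair that did not pass was miR-148a-3p in ECs against HCs, at 0.10 ± 0.17 (edgeR adjusted p = 0.62), which is negative with library size alone (-0.70). Restricting the comparison to D0 ended the calls of miR-148a-3p, miR-148b-3p and miR-152-5p for ECs against FBs, of miR-148a-5p and miR-148b-3p for ECs against HCs and of both arms of miR-148b for FBs against HCs.

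Pairs that involve CMs depended on the scaling. Without miR-148a-3p there were 15 such tests, and 13 passed with TMM (edgeR), against backgrounds of 69.4% of all miRNAs for CMs against ECs, 75.7% for FBs and 77.7% for HCs. Only 4 of the 13 kept their direction and their call with library size alone, and 9 of the 15 differences changed sign. The sign of miR-148b-3p between CMs and HCs (0.24 ± 0.091 in edgeR) also turned with DESeq2 (-0.071). The 4 were miR-148a-5p, higher in CMs than in ECs by 2.79 ± 0.15, miR-152-3p, lower in CMs than in ECs by 0.63 ± 0.088 and than in FBs by 1.36 ± 0.09, and miR-148b-5p, lower in CMs than in HCs by 0.44 ± 0.11, all on the TMM scale. At D0 alone the last of these had the other sign and did not pass (0.18, edgeR adjusted p = 0.63).

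In CMs, miR-148a-3p was the third most abundant mature miRNA at D0 and had its lowest group means from D7 on. At D0 the 4 libraries held 15412, 35412, 84068 and 83398 CPM (replicates 1 to 4). At D1 they held 46309, 37188, 7469.7 and 8977 CPM, and at D3 24919, 14392, 6557 and 7672. The D0 libraries spread more than 5-fold, and replicates 1 and 2 at D1 and replicate 1 at D3 lay within their range. The later libraries held 8778, 9503, 11477 and 12310.4 CPM at D7, 10955, 13212, 12643 and 8182 at D14 and 19226, 7156, 7858 and 7482 at D28. All 4 libraries at D7 and at D14 lay below the lowest D0 library, and at D28 replicate 1 alone lay above it. The D14 mean of 11248 ± 2257 CPM (SD, n = 4) was 20.6% of the D0 mean of 54572 ± 34648, and D7 and D28 stood at 19.3% and 19.1%.

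The size of a change in CMs depends on how the libraries are scaled. One miRNA, the muscle miRNA miR-1a-3p, held 657447 ± 57062 CPM at D0, and the TMM factors of the D0 libraries lay between 0.289 and 0.357, against 1.91 to 2.04 at D14. The median log2 change of all 484 miRNAs tested at D1, D3, D7, D14 and D28 was 0.20, 0.44, 0.35, 0.41 and 0.25 with TMM, and 1.42, 2.37, 2.67, 2.99 and 1.99 with library size alone. miR-148a-3p was lower under both scalings, by 4.87 ± 0.80 log2 units (SE) at D14 with TMM and by 2.28 with library size, a described value since it chose the family. At D1, D3, D7 and D28 its log2 change was -1.91, -3.86, -4.66 and -3.85 with TMM, and -1.13, -2.03, -2.38 and -2.39 with library size.

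**Figure D2:**
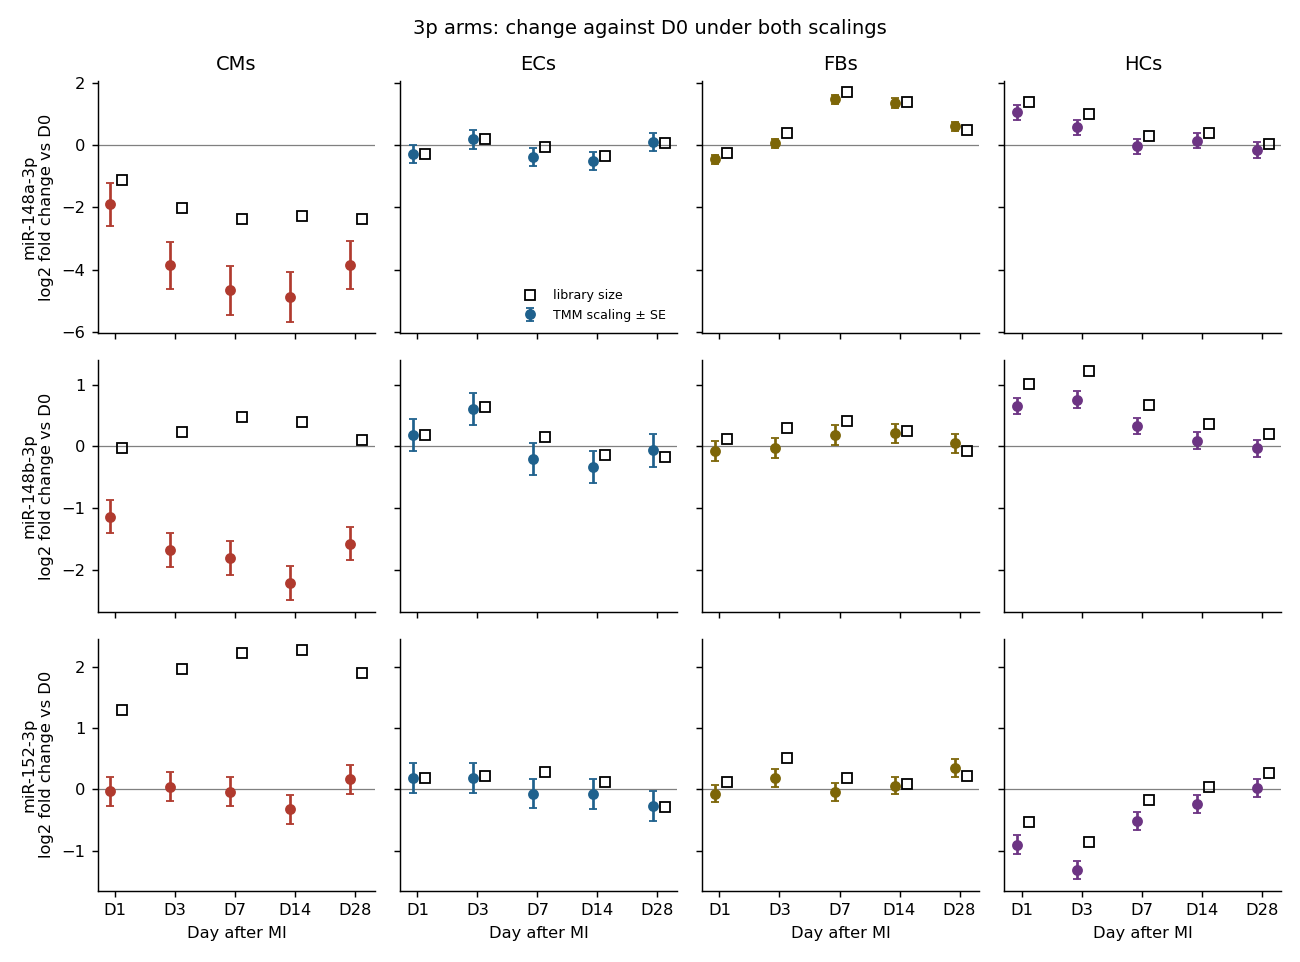
Log2 fold change of each 3p arm against D0 by day and cell type, with filled circles for the TMM-scaled edgeR estimate ± SE and open squares for library size alone. In CMs, miR-148a-3p lies below 0 under both, miR-148b-3p lies below 0 with TMM and at or above -0.03 with library size, and miR-152-3p lies near 0 with TMM and up to 2.27 with library size.

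For the 2 paralogs in CMs the raw levels and the TMM scale differed in direction. miR-148b-3p held 401, 388, 505 and 467 CPM at D0 and 591, 591, 660.0 and 595 at D7, so that no D7 library fell within the D0 range. On the TMM scale the same counts gave a log2 change of -1.81 ± 0.27 at D7 (edgeR adjusted p = 8.2e-06), and of -1.14, -1.68 and -1.58 at D1, D3 and D28, which also passed. With library size the D7 change was 0.47. The D1 call was lost with library size, at -0.03, and with D0 and D1 libraries alone in the fit, at -1.11 (edgeR adjusted p = 0.077). miR-152-3p held 361, 154, 186 and 181 CPM at D0, 591, 866, 974 and 1023 at D3 and 1081, 1138, 1038 and 881 at D7, and every library from D3 on lay above all 4 at D0. Its TMM log2 changes of -0.025, 0.042, -0.034 and 0.17 at D1, D3, D7 and D28 did not pass (edgeR adjusted p at least 0.56), while library size gave 1.30, 1.97, 2.23 and 1.90. With library size the median change of all 484 miRNAs was 1.42, 2.37, 2.67 and 1.99 on these days, above that of either paralog. A rise in CPM was thus common to most miRNAs in CMs.

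Counting the 5 arms other than miR-148a-3p at D1, D3, D7 and D28, 8 of 20 tests passed in CMs with TMM, all lower than D0, while library size gave 12 higher and 0 lower. The background of called miRNAs with TMM was 25% at D1, 55.2% at D3, 69% at D7 and 54.3% at D28. By day, 1, 2, 4 and 1 of the 5 arms passed. The 5p arms called were miR-148a-5p at D3 (-1.32, edgeR adjusted p = 0.040) and at D7 (-2.10), miR-148b-5p at D7 (-1.28) and miR-152-5p at D7 (-1.65). The D3 call of miR-148a-5p was lost when any of 6 libraries was left out, D0 replicates 2, 3 and 4 and D3 replicates 2, 3 and 4, with adjusted p between 0.053 and 0.11. The D7 call of miR-148b-5p was lost without the filter on low counts (-0.93, edgeR adjusted p = 0.068).

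Ratios between paralogs within a library do not depend on scaling, and they are described without a test in CMs because miR-148a-3p chose the family. The log2 ratio of miR-148a-3p to miR-148b-3p was 6.66 ± 1.03 at D0 (SD, n = 4) and 4.10 ± 0.20 at D7, and that to miR-152-3p went from 7.73 ± 1.61 to 3.34 ± 0.37. The ratio of miR-152-3p to miR-148b-3p, which does not involve the selecting arm, went from -1.07 ± 0.62 at D0 to 0.71 ± 0.43 at D3 and 0.76 ± 0.18 at D7. Thus miR-148b-3p was the more abundant of these in CMs at D0 and miR-152-3p from D3 on. Marker sums moved in the same libraries. The summed CPM of the CM markers ranged from 603382 to 709040.0 at D0 and from 311247 to 419381 at D14. For the EC markers the ranges were 4423 to 9789 and 19277 to 27651, for the FB markers 36.5 to 114 and 1358 to 2188, and for the HC markers 14.6 to 75.8 and 151 to 182. Their part in the changes was not tested.

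In FBs, miR-148a-3p rose at D7 and D14 and was still higher than D0 at D28, while the other 3p arms did not pass the test on any day. The D0 libraries held 13666, 12588, 13074 and 12374 CPM. The D7 libraries held 40394, 37553, 38108 and 50802 CPM and those of D14 31595, 31012, 38307 and 34384. Every D7 and D14 library was above every D0 library by a wide margin. At D28 the libraries held 20652, 16915, 13541 and 20931 CPM, with replicate 3 inside the D0 range. The log2 change was 1.47 ± 0.15 at D7 (edgeR adjusted p = 4.5e-08), 1.35 ± 0.15 at D14 (2.9e-07) and 0.61 ± 0.15 at D28 (0.012). Before that, D1 held 11534, 12950.0, 9285 and 9204 CPM, a log2 change of -0.46 ± 0.15 that did not pass (edgeR adjusted p = 0.052) but did without FB D1 replicate 2, D3 replicate 4, D7 replicate 4 or D28 replicate 3, and D3 held 14667, 16428, 16819.5 and 19544, all above D0 in CPM with a TMM change of 0.063 ± 0.15.

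The passenger arm moved with it. miR-148a-5p held 27.3, 27.5, 20.6 and 22.7 CPM at D0, 64.5, 54.8, 47.4 and 75.3 at D7 and 56.2, 47.6, 48.7 and 44.1 at D14, and its log2 change was 1.10 ± 0.21 at D7 (edgeR adjusted p = 0.00016) and 0.98 ± 0.21 at D14 (0.0013). miR-152-5p passed at D7 only among the 5 days, at 0.68 ± 0.20 (edgeR adjusted p = 0.0069), from 35.2 to 57.5 CPM at D0 to 67.6 to 99.8 at D7. Its partner miR-152-3p held 3276 to 5555 CPM at D0 and 4771 to 5475 at D7, a change of -0.041 ± 0.14. miR-148b-3p likewise stayed between 668 and 1378 CPM, with its largest TMM change at 0.21 ± 0.16. In all, 6 of 30 arm-by-day tests passed in FBs, all higher, and 11 with library size alone. Of the 6, 3 were at D7, 2 at D14 and 1 at D28, and each passed when any 1 of the 24 FB libraries was left out. In the order of the days the backgrounds were 7.99%, 43%, 45.6%, 24.7% and 6.75%.

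Over the 6 days together, 3 of the 6 arms changed in FBs by the edgeR F test (miR-148a-3p, miR-148a-5p and miR-152-5p), against 68.2% of all miRNAs. The median log2 change of all 563 tested miRNAs in FBs stayed between -0.071 and 0.057 with TMM. FB libraries held little CM-marker signal, 776 to 5825 CPM in sum, and the median FB-marker sum was 57378 at D0 and 52075 at D7. The mural-cell markers had medians of 27017 and 30369 CPM on those days and the HC markers 230.5 and 124.

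In HCs the family split in the first week. Both arms of miR-148a and of miR-148b were higher at D1 or D3 than at D0, and both arms of miR-152 were lower. miR-148a-3p held 8341, 8065, 8367 and 7849 CPM at D0, 28118, 23484, 15019 and 19032 at D1 and 15528, 17646, 19783 and 11671 at D3, so all D1 and D3 libraries were above all D0 libraries. The log2 change was 1.05 ± 0.25 at D1 (edgeR adjusted p = 0.00084) and 0.57 ± 0.24 at D3 (0.046). The D3 call was lost when any of 8 libraries was left out (adjusted p 0.050 to 0.19), D0 replicate 1, D0 replicate 2, D0 replicate 3, D0 replicate 4, D1 replicate 2, D3 replicate 3, D14 replicate 1 and D28 replicate 4. By D28 the libraries held 7052, 5547, 11717 and 9389 CPM, around the D0 values.

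miR-148b-3p, whose mean CPM was highest in HCs among the cell types, held 1468, 1282, 1531 and 1226 CPM at D0, 2930.2, 2493, 2530.4 and 3035 at D1 and 3012, 3209, 3020.4 and 3368 at D3. Neither the D1 nor the D3 libraries overlapped D0, and D3 was the narrower group. The log2 change was 0.65 ± 0.13 at D1 (edgeR adjusted p = 0.00020), 0.76 ± 0.13 at D3 (2.4e-05) and 0.33 ± 0.13 at D7 (0.038). At D14 and D28 it was 0.095 and -0.033, not called. The 5p arms of both hairpins were called on the same side. miR-148b-5p held 23.0 to 28.6 CPM in the 3 D0 libraries other than replicate 3 and 49.8 to 57.6 at D3, a log2 change of 0.57 ± 0.17 (edgeR adjusted p = 0.0054) that did not pass without the filter on low counts (0.43, adjusted p = 0.20). miR-148a-5p went from 8.84 to 10.7 CPM in those D0 libraries to 19.0 to 29.5 at D1, a change of 0.86 ± 0.22 (edgeR adjusted p = 0.0020).

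miR-152-3p went the other way. It held 1884, 1931, 1750.0 and 1863 CPM at D0, 1317, 1231, 1424 and 1198 at D1, 928, 1220.5, 961 and 1041 at D3 and 1605, 1385, 1795 and 1875 at D7. All D1 and D3 libraries lay below all D0 libraries, and D7 overlapped D0. The log2 change was -0.90 ± 0.15 at D1 (edgeR adjusted p = 2.3e-05), -1.31 ± 0.15 at D3 (6.2e-08) and -0.51 ± 0.15 at D7 (0.0064). The D7 call ended with library size alone (-0.17). At D28 the libraries, at 2154, 2455, 1963 and 2395 CPM, were all above those of D0, with a TMM change of 0.025 ± 0.15 that did not pass. miR-152-5p fell with its partner, by 1.40 ± 0.23 at D1 and 1.16 ± 0.23 at D3 on the log2 scale (edgeR adjusted p = 1.6e-05 and 9.6e-05), from 20.7 to 28.9 CPM in the 3 deep D0 libraries to 9.99 to 16.6 at D1.

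Of the 30 arm-by-day tests in HCs, 15 passed, 9 higher and 6 lower than D0, and with library size alone 15 were higher and 4 lower. By day, 5 passed at D1, 6 at D3 and 4 at D7, and DESeq2 called 6, 6 and 3. In the order of the days the backgrounds were 54.3%, 59%, 49.5%, 28.1% and 24%. At D14 and D28, 0 of 12 passed with edgeR, 0 with DESeq2, and 1 of these had an unadjusted edgeR p under 0.05. Over the 6 days, 6 of 6 arms changed by the edgeR F test, against 73.5% of all miRNAs. Every call at D1, and those at D3 except that of miR-148a-3p, passed when any 1 of the 24 HC libraries was left out. The 4 calls at D7 rested on single libraries. That of miR-152-3p was lost without D3 replicate 1, 2 or 4 or D7 replicate 3, where the change was -0.32 to -0.37, and that of miR-152-5p (adjusted p = 0.020) without D0 replicate 4 or any of the same libraries (-0.44 to -0.46), with library size alone (-0.22) and with DESeq2. That of miR-148b-3p was lost without D0 replicate 2, 3 or 4 or D7 replicate 1, 2 or 4 (0.28 to 0.35, adjusted p up to 0.12) and that of miR-148b-5p without D0 replicate 1 or 2 or D7 replicate 2 or 4 (0.40 to 0.44). Without the filter on low counts the calls of miR-148a-3p at D3 and of both arms of miR-148b at D7 also ended, and with D0 and D7 libraries alone in the fit those of miR-152-3p and both arms of miR-148b at D7.

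Other values moved in the same HC libraries. The summed CPM of the CM markers ranged from 85776 to 132287 at D0 and from 38493 to 64736 at D3, that of the EC markers from 54905 to 91837 and from 14781 to 21541. For the mural-cell markers the ranges were 21694 to 32349.7 and 4768 to 7316, for the FB markers 4229 to 4533 and 2362 to 3431, and for the HC markers 6819 to 10015 and 14671 to 25044. The erythroid and liver marker sums had medians of 98.8 and 847 CPM at D0 and 188 and 982 at D3. The part of these shifts in the changes of the family was not tested. Without the shallow D0 library, replicate 3, the D3 change was -1.40 for miR-152-3p and 0.72 for miR-148b-3p (edgeR adjusted p = 9.1e-09 and 5.6e-05).

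In ECs no arm passed on any day with edgeR and TMM scaling. The 3p arm of miR-148a held 7802, 8612, 5717 and 8126 CPM at D0, 10833, 8839, 8464 and 6331 at D3 and 4048, 6899.6, 14553 and 6428 at D28, so that the groups overlapped throughout, and its TMM log2 changes lay between -0.52 and 0.18. miR-152-3p held 2951, 2277, 2774 and 2698 CPM at D0 and between 1391 and 3672 over all days. The change nearest to a call by adjusted p was miR-148b-5p at D28, at -1.09 ± 0.51 (edgeR adjusted p = 0.080), on 0, 3, 0 and 24 counts, of which the zeros allow up to 5.71 and 4.72 CPM. It passed with DESeq2, with library size alone and, narrowly, without the filter on low counts, at -1.18, -1.33 and -1.30. With 1 library left out it ran from -0.83 to -2.98, the last without EC D28 replicate 4, and it passed without that library, D7 replicate 2, 3 or 4 or D14 replicate 1 or 2. miR-148b-3p at D3 had a smaller unadjusted p. All 4 of its libraries, at 971, 979, 1111 and 843 CPM, exceeded the D0 libraries at 748, 542, 628 and 602, a log2 change of 0.61 ± 0.26 (edgeR adjusted p = 0.11). It passed with library size alone (0.63) and with D0 and D3 libraries alone in the fit (0.54, edgeR adjusted p = 0.0038). The CM markers in the EC libraries summed to 75957 to 134289 CPM at D0 and 21002 to 80702 at D28, and their part in the EC levels was not tested.

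Of 30 EC tests 0 passed with edgeR and 2 had an unadjusted p under 0.05, while DESeq2 called 1, and library size alone called 1 higher and 1 lower. In the order of the days the backgrounds were 0%, 17.6%, 22.6%, 14.5% and 47%. Over all 6 days the edgeR F test passed miR-148b-3p alone (adjusted p = 0.028), against 58.2% of all miRNAs, and 0 arms without a filter on low counts. The call was lost without EC D3 replicate 1, 2 or 3, and the count of arms rose to 4 without D28 replicate 1, to 3 without D28 replicate 4 and to 2 without D7 replicate 2, 3 or 4 or D14 replicate 1 or 2. With any 1 of these last 7 libraries left out, 2 of the 30 single-day tests passed. EC libraries were also the shallowest as a class, with a median of 3583269.5 counts against 13945009.5, 17767778 and 11941956 in CMs, FBs and HCs.

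Whether a change differed between ECs, FBs and HCs was tested directly, as the difference between the log2 changes of 2 cell types against their own D0, and 12 of 90 tests passed in edgeR, 8 of them also with library size alone. The rise of miR-148a-3p in FBs was larger than the change in ECs. The EC minus FB difference was -1.92 ± 0.58 at D7 (edgeR adjusted p = 0.016) and -1.97 ± 0.58 at D14 (0.023). Against HCs it was not called, with a FB minus HC difference of 1.54 ± 0.58 at D7 (edgeR adjusted p = 0.061) and 1.12 ± 0.58 at D14 (0.28). With library size alone the D7 difference from HCs passed (1.41, edgeR adjusted p = 0.038). The fall of miR-152-3p in HCs at D3 differed from the change in ECs by 1.37 ± 0.31 (0.00030) and from that in FBs by 1.62 ± 0.31 (3.2e-05). At D1 the same differences were 0.98 ± 0.31 and 1.03 ± 0.31 (0.024 and 0.0099). miR-152-5p differed between FBs and HCs at D1, D3 and D7, by 1.53, 1.52 and 1.36, and between ECs and HCs at D3, by 1.31. The other 2 calls were of miR-148b-5p at D28, with an EC minus FB difference of -1.28 and an EC minus HC difference of -1.39. The HC rises of miR-148a-3p and miR-148b-3p at D1 and D3 were not called against ECs or FBs with TMM. With library size alone, those of miR-148a-3p at D1 and of miR-148b-3p on both days were called against both.

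At D1, D3, D7, D14 and D28 the share of all 712 miRNAs called was 0.983%, 4.21%, 11.8%, 5.62% and 25.1% for ECs against FBs, 15.3%, 31.6%, 16%, 4.63% and 24.6% for ECs against HCs and 19.8%, 27.4%, 13.6%, 8.01% and 4.35% for FBs against HCs. The D1 differences of miR-152-3p were lost when any of 45 (ECs) or 44 (FBs) of the 96 libraries was left out, libraries of other cell types included, with values down to 0.58 and 0.61, the scaling factors being computed anew each time. Both were also lost with library size alone (0.72 and 0.65) and without the filter on low counts (0.86 and 0.72), and that between FBs and HCs with DESeq2 (0.51). Both D3 differences of miR-152-3p held under every left-out library. The D7 difference of miR-148a-3p was lost without EC D7 replicate 2, EC D7 replicate 4 or FB D7 replicate 4 (lowest size -1.76), and the D14 difference without EC D14 replicate 4 (-1.77). The D1 difference of miR-152-5p between FBs and HCs was lost without any of 44 libraries (0.91 to 1.30) and the D3 difference between ECs and HCs without any of 35 (0.94 to 1.20), and both with DESeq2 (0.92 and 0.82), with library size alone and without the filter, while the D3 difference between FBs and HCs was lost without HC D0 replicate 4, HC D3 replicate 1 or HC D3 replicate 3 (1.06 to 1.18) and likewise with DESeq2 (1.07). The D7 difference was lost without FB D0 replicate 4, FB D7 replicate 1 or 4, HC D0 replicate 2 or 4 or HC D7 replicate 1, 2 or 3 (1.05 to 1.27). The D28 differences of miR-148b-5p were both lost without EC D28 replicate 1, 2 or 3, and that from FBs also without EC D0 replicate 1 or 3 or FB D0 replicate 1 or 2 (-1.04 to -1.25 and -1.14 to -1.19). Without EC D28 replicate 4 they were -3.20 and -3.30. Both were lost without the filter on low counts (-1.45 and -1.52) and without the library farthest from its group in HC D0, FB D0 and EC D28 (-0.96 and -1.13), and that from FBs with DESeq2 (-1.08).

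The 3p arms share a seed, so their sum and its make-up were described, without a test. The summed 3p level in FBs was 18423 ± 1294 CPM at D0 (SD, n = 4) and 48138 ± 6346 at D7. In HCs it was 11389 ± 354 at D0 and 25453 ± 5705 at D1, and in ECs the day means stayed between 9482 and 12702. CMs went from 55233 ± 34638 at D0 to 12161 ± 1577 at D7. In every group of libraries miR-148a-3p held most of this sum.

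miR-148a-3p made up 98.1% ± 1.87 of the family's 3p counts in CMs at D0 and 86.3% ± 2.43 at D7. In FBs its share was 70.4% ± 5.04 at D0, 86.5% ± 1.47 at D7 and 74.1% ± 2.52 at D28, and in HCs 71.6% ± 0.230 at D0, 83.5% ± 3.70 at D1 and 67.8% ± 7.24 at D28. miR-152-3p held 16.3% ± 0.979 in HCs at D0 and 5.20% ± 1.04 at D3, and miR-148b-3p 12.1% ± 0.935 and 15.9% ± 3.54. In HCs, therefore, miR-152-3p was the second 3p arm at D0 and the third at D3. The log2 ratio of miR-152-3p to miR-148b-3p there was 0.44 ± 0.20 at D0, -1.09 ± 0.22 at D1, -1.61 ± 0.14 at D3 and 0.53 ± 0.23 at D28, whereas in FBs it stayed between 2.07 and 2.59.

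**Figure D3:**
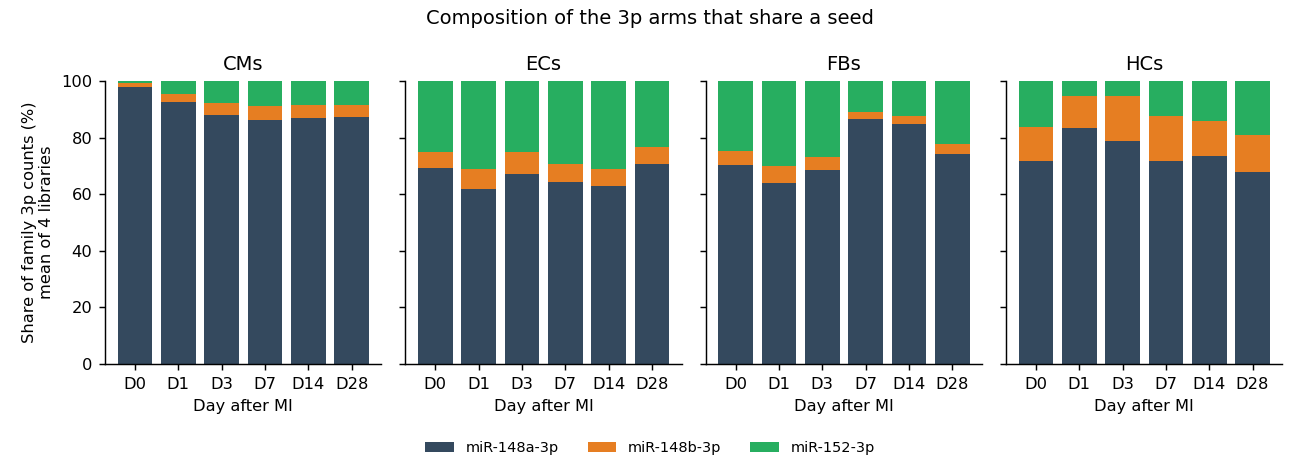
Share of the family's 3p counts (%, mean of 4 libraries, bars from 0 to 100) held by each 3p arm, by day after MI and cell type. In CMs miR-148a-3p goes from 98.1% at D0 to 86.3% at D7, and in FBs from 70.4% to 86.5%.

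The 5p arm was the minor arm of each hairpin in every group. Its mean share of both arms' counts lay between 0.0301% and 0.239% for miR-148a, 0.307% and 2.18% for miR-148b, and 0.751% and 6.06% for miR-152. The highest value, for miR-152 in CMs at D0, rests on 5p levels of 5.24, 7.43, 12.3 and 24.7 CPM beside the 3p levels given above. Since both arms come from 1 library, their ratio does not depend on scaling.

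**Figure D4:**
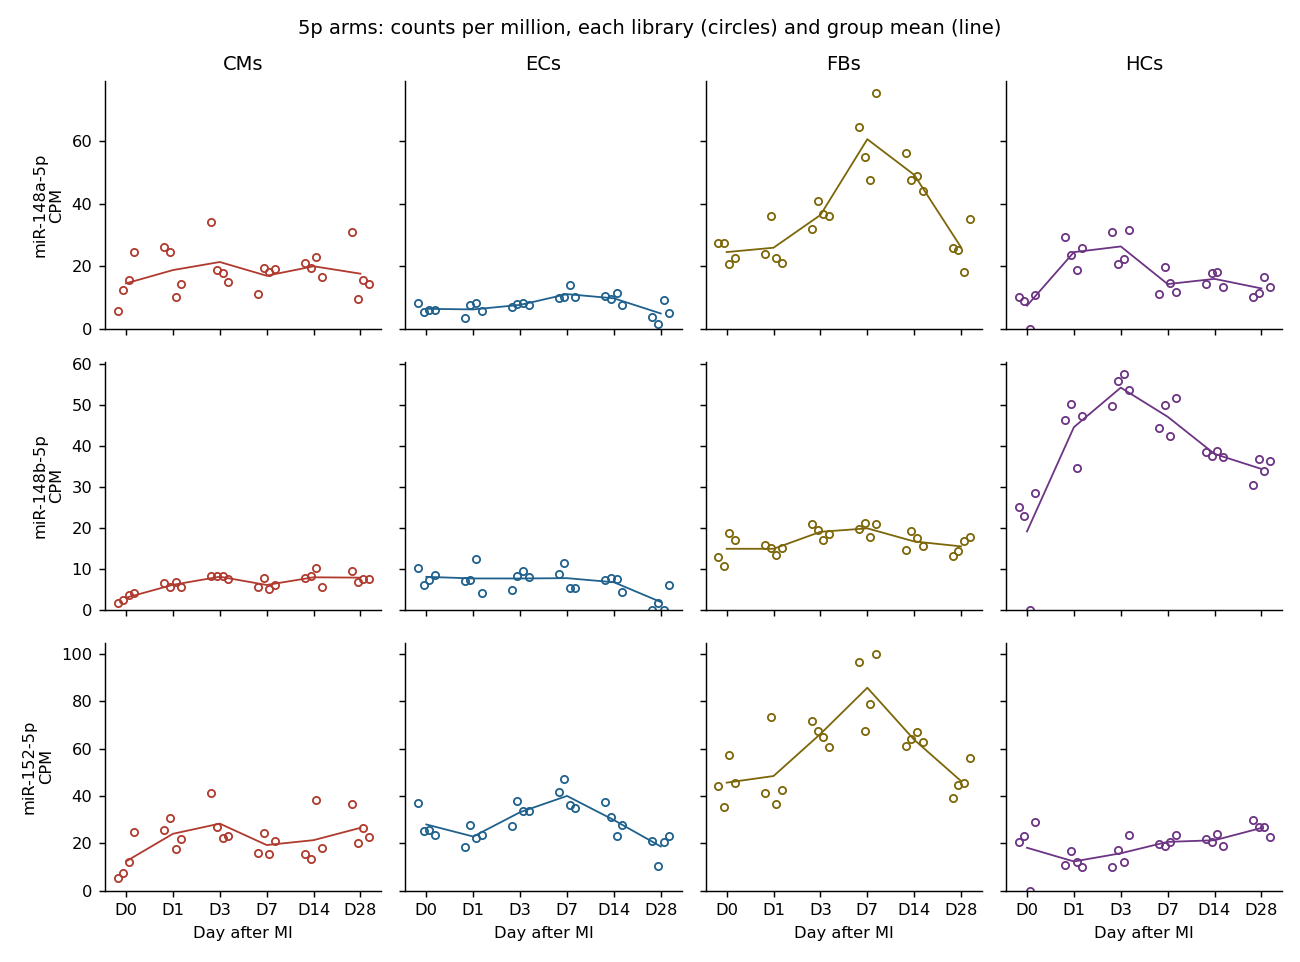
CPM (linear axis from 0) of the 5p arms by day after MI, a row per arm and a column per cell type, with a circle for each library and a line through the group means. miR-148a-5p peaks in FBs at a mean of 60.5 at D7, and miR-148b-5p is highest in HCs, with a mean of 54.2 at D3.

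The largest shift in arm ratio belonged to miR-148a in CMs and is a description, since its 3p arm chose the family. On the log2 scale the 5p-to-3p ratio was -11.74 ± 0.46 at D0 (SD, n = 4), -10.04 ± 0.75 at D1, -9.15 ± 0.50 at D3 and -9.11 ± 0.19 at D14, a 5p share of 0.0301% at D0 and 0.181% at D14. All libraries from D1 on lay above all D0 libraries. In CPM the 5p arm held 5.71, 12.5, 15.5 and 24.6 at D0 and 16.5 to 23.1 at D14, while its log2 change on the TMM scale was -2.14 at D14, a described value.

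For the other 2 hairpins in CMs the ratio was tested with limma at D1, D3, D7 and D28. That of miR-148b was -7.25 ± 0.41 at D0 and rose by 1.12 ± 0.23 at D1 (SE, limma adjusted p = 0.0021), 1.26 ± 0.23 at D3 (0.00017), 0.60 ± 0.23 at D7 (0.027) and 1.35 ± 0.23 at D28 (6.9e-05). That of miR-152 was -4.31 ± 1.34 at D0, with a change of -1.45 ± 0.59 at D7 (limma adjusted p = 0.034) and changes at D1, D3 and D28 that did not pass. Of the 8 tests 5 passed, against backgrounds over all hairpins of 42.4% at D1, 68.7% at D3, 70.7% at D7 and 67.7% at D28. Both D7 calls were lost when single libraries were left out, that of miR-148b without D0 replicate 1 or 2 or D7 replicate 2 or 4 and that of miR-152 without D0 replicate 2, 3 or 4 or D7 replicate 1 or 3, where the sizes were as low as 0.43 and -0.97.

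**Figure D5:**
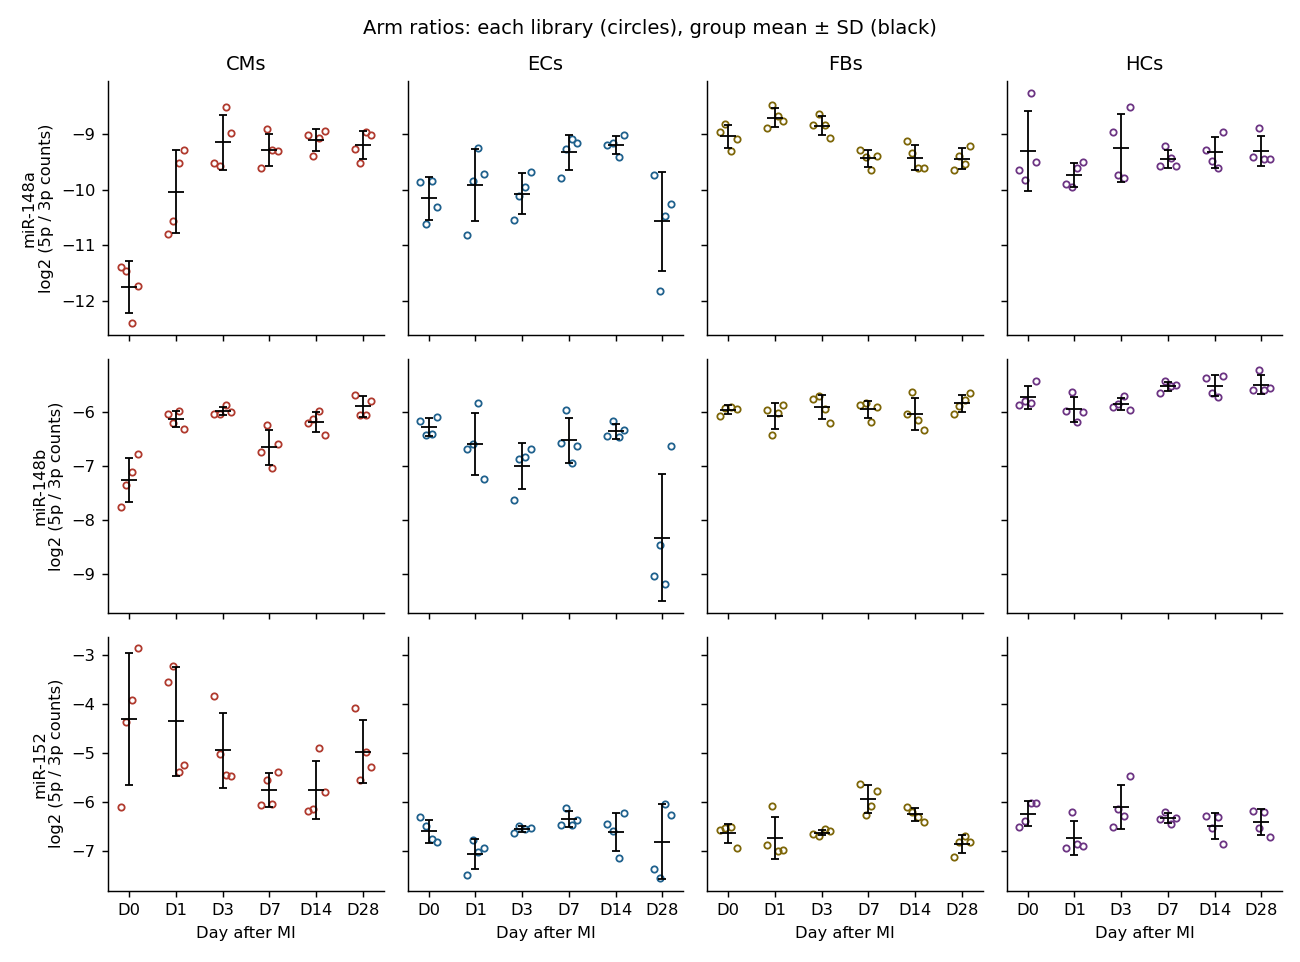
Log2 of the 5p-to-3p count ratio (0.5 added to each) for each hairpin by day and cell type, with a circle per library and the group mean ± SD in black. miR-148a in CMs goes from a mean of -11.74 at D0 to -9.11 at D14, and miR-148b in ECs drops at D28 to -8.32, where the 5p arm had few counts.

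In FBs the ratio of miR-148a changed over the 6 days (limma F test, adjusted p = 0.0012), from -9.05 ± 0.20 at D0 to -8.71 ± 0.17 at D1 and -9.44 ± 0.15 at D7, and so did that of miR-152 (0.0037), from -6.63 ± 0.20 at D0 to -5.93 ± 0.29 at D7. The miR-148b ratio in FBs had an adjusted p of 0.78 in the same limma test. In HCs none of the 3 hairpins passed by limma (lowest adjusted p = 0.14, with 1 unadjusted p under 0.05), and without the shallow D0 library the D0 ratio of miR-148a was -9.66 ± 0.16 in place of -9.31 ± 0.71. In ECs the limma test passed miR-148a (adjusted p = 0.034) and miR-148b (0.0045), but a pseudocount of 5 or a minimum of 50 mean counts per arm left 0 calls, and 1 call was left without D0 replicate 4, D7 replicate 2, 3 or 4, D14 replicate 1, 2 or 4 or D28 replicate 3. The background was 40.4% of all hairpins in ECs, 49.7% in FBs and 15.8% in HCs, where 24 hairpins were called with and 53 without the shallow library.

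Reads that missed the mature set and aligned to the hairpins give a further readout. Their share is taken of hairpin and mature counts together. That of miR-148a in CMs thus includes the counts that chose the family. They made up a median of 5.40%, 4.07%, 5.61% and 4.69% of all miR-148a counts in CMs, ECs, FBs and HCs. For miR-148b the medians were 33.8%, 39.5%, 35.5% and 40.8%, and for miR-152 28.9%, 46.2%, 47.1% and 41.7%. The share of miR-152 in single CM libraries ran from 20.8% to 76.7%. The mature counts of miR-148b and miR-152 thus leave out a larger part of the hairpin's reads than those of miR-148a, in each cell type. A read that fits several hairpins may be counted at each.

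Related miRNAs were taken from lists set down by name. The family of miR-130 and miR-301 has a seed offset by 1 base from that of miR-148a-3p, as miR-130a-3p shows, again with bases 2 to 8 in capitals.
miR-130a-3p: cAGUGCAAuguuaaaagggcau
In HCs, 3 of its 4 members rose and 1 fell at D1, at D3 and at D7 (edgeR). The median log2 change was 1.85 at D3, beside 0.019 over all miRNAs tested. The share of all miRNAs called in HCs on these days was 54.3%, 59% and 49.5%. miR-301a-3p went from 1.96 ± 1.40 CPM at D0 to 14.4 ± 5.25 at D3 (SD, n = 4). Its D0 mean includes replicate 3, whose 18286 counts are too few to measure a level this low. The log2 change of miR-130a-3p, the member that fell, was -1.66 ± 0.27 (SE) at D3. With library size alone the D1 fall of miR-130a-3p did not pass. In FBs 1 of 4 passed at D7, miR-130a-3p, lower, which did not pass with library size, and 0 on the other days. In CMs 3 of 4 were higher at D7 (median 2.23, beside 0.35). In ECs, where only miR-130a-3p was abundant enough to test, it fell at D28. Of all miRNAs tested, 45.6% were called in FBs at D7, 69% in CMs at D7 and 47% in ECs at D28.

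The miR-29 miRNAs, known repressors of the de novo DNA methyltransferases Dnmt3a and Dnmt3b and of collagens, went the opposite way to miR-148a-3p in FBs. At D7 and at D14 all 3 of 3 were lower than D0 under both scalings (edgeR), with median log2 changes of -1.54 and -1.39 beside -0.071 and -0.0091 over all miRNAs. miR-29a-3p went from 7915 ± 3589 CPM at D0 to 3239 ± 908 at D7. In CMs 3 of 3 were higher at D7 (median 3.01, beside 0.35 over all miRNAs), miR-29a-3p going from 418 ± 290.3 CPM at D0 to 15973 ± 3969. The direction of miR-148a-3p in CMs was set by the choice of the family, so no contrast with it is drawn there. In HCs 2 of 3 were lower at D1 and at D7 and 1 at D3, but 0 on each day with library size alone. In ECs 3 of 3 were lower at D28 under both scalings and 0 on the other days. The share of all miRNAs called with TMM was 45.6% and 24.7% in FBs at D7 and D14, and 69% in CMs at D7. It was 54.3%, 59% and 49.5% in HCs at D1, D3 and D7, and 47% in ECs at D28.

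The miRNAs whose pattern was most like that of a 3p arm were found by Pearson correlation of log2 CPM on the TMM scale, as a description. Over the 24 group means, which share their cell types and scaling factors, the nearest of 230 candidates to miR-148a-3p were miR-181a-2-3p (r = 0.84), miR-99a-5p (r = 0.76), let-7c-2-3p (r = 0.75), let-7a-1-3p (r = 0.75) and miR-100-5p (r = 0.74). For miR-148b-3p they were miR-361-3p (r = 0.78), miR-221-5p (r = 0.77), miR-1964-3p (r = 0.71), miR-128-3p (r = 0.69) and miR-24-2-5p (r = 0.68). For miR-152-3p they were miR-195a-5p (r = 0.94), let-7b-5p (r = 0.91), let-7c-5p (r = 0.88), miR-26a-5p (r = 0.86) and miR-195a-3p (r = 0.86). The highest of these 15 values was that of miR-195a-5p to miR-152-3p. Those of let-7c-2-3p and let-7a-1-3p to miR-148a-3p were equal (0.749176), so these may not be separate profiles. Within a cell type the measure ran over its 24 libraries. In FBs the nearest to miR-148a-3p were miR-224-5p (r = 0.84), miR-379-5p (r = 0.83) and miR-382-5p (r = 0.79), to miR-148b-3p miR-192-5p (r = 0.61), miR-34b-5p (r = 0.59) and miR-340-5p (r = 0.58) and to miR-152-3p miR-185-5p (r = 0.81), miR-340-5p (r = 0.78) and miR-199b-5p (r = 0.72). In HCs they were miR-340-3p (r = 0.78), miR-467a-5p (r = 0.74) and miR-27a-5p (r = 0.72) for miR-148a-3p, miR-340-5p (r = 0.94), miR-7a-5p (r = 0.91) and miR-7b-5p (r = 0.91) for miR-148b-3p and miR-125b-2-3p (r = 0.97), miR-125b-5p (r = 0.94) and miR-203-3p (r = 0.93) for miR-152-3p. In ECs they were miR-1b-5p (r = 0.76), miR-1a-3p (r = 0.71) and miR-192-5p (r = 0.54) for miR-148a-3p, 2 of them muscle miRNAs, miR-101a-3p (r = 0.87), miR-542-3p (r = 0.84) and miR-7a-5p (r = 0.79) for miR-148b-3p and miR-27b-3p (r = 0.94), miR-126b-3p (r = 0.89) and miR-126a-5p (r = 0.89) for miR-152-3p. In CMs the TMM factor of every D0 library lay below that of every later library. There the nearest to miR-148a-3p were miR-674-3p (r = 0.98), miR-143-3p (r = 0.98) and miR-30e-3p (r = 0.98). Those to miR-148b-3p were miR-143-3p (r = 0.99), miR-206-3p (r = 0.98) and miR-1b-5p (r = 0.98). Those to miR-152-3p were miR-145a-5p (r = 0.73), miR-186-5p (r = 0.66) and miR-27b-3p (r = 0.66). Between the members, miR-148b-3p and miR-152-3p had r = -0.84 in HCs and 0.67 in ECs. In CMs miR-148a-3p and miR-148b-3p had r = 0.96 on the TMM scale, which includes the values that chose the family. In CPM these 2 arms moved apart in CMs. The mean of miR-148a-3p went from 54572 at D0 to 10517 at D7, and that of miR-148b-3p from 440 to 609.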

How the data were processed

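Small RNA was sequenced in 96 libraries, 24 groups of 4. Per the methods of the study, reads were trimmed with Trim Galore, those under 18 nt dropped, and the rest aligned in an nf-core pipeline to mature and then hairpin sequences of miRBase 21, and the submitters' notes also name Bowtie2, SAMtools and mm10 without versions. The deposited values are raw read counts per mature miRNA and per hairpin, without molecular identifiers, and were used as the authors deposited them. Depth sets the counting error of low arms. The 3 libraries that the study set aside were kept here.

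CPM is the count scaled to a common total of mature miRNA counts. Per cell type, edgeR 4.0.16 (R 4.3.3) quasi-likelihood fits used 24 libraries, TMM factors, the default low-count filter and day as a factor. A fit on all 96 libraries with 24 groups gave differences between cell types. P-values were adjusted by Benjamini-Hochberg over all miRNAs tested, with a threshold of 0.05, and all 6 members passed the filter in every fit. The 5p-to-3p ratio of counts (log2, 0.5 added to both) was tested with limma 3.58.1 where both arms averaged 10 counts or more. Likeness was sought among miRNAs averaging 100 CPM or more in at least 1 group, or in the cell type, and the text names the 5 nearest over group means and the 3 nearest within a cell type. The alternatives were DESeq2 1.42.0, scaling by library size alone, no filter on low counts, a replicate block, fewer libraries or days, another pseudocount and another count minimum. The fits were also run on simulated counts with known changes at 1 day. Those counts lacked the shift of scaling factors between days that the CM libraries show. The members and lists were chosen with earlier results of these data known. Tests on CMs over all days were left out because they use the D14 values. Differences of changes that involve CMs were left out as well. Of those, only the differences of miR-148a-3p and those at D14 involve the arm or the day that chose the family. P-values measure the spread between pools, and libraries of different cell types on 1 day came from the same animals per the methods, without a stated match of replicate numbers.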

Additional observations from a re-analysis of the deposited data

Results flagged for a closer look

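Of 144 groups of 4 libraries (6 arms in 24 groups), 8 held a library whose gap to the nearest other exceeded the 95% critical value of Dixon's test as a share of the group's range, where chance alone gives about 1 in 20 groups. In CMs these were miR-148a-3p at D28 in replicate 1 (19226 CPM, with the others between 7156 and 7858), miR-148a-5p at D7 in replicate 1 (11.1 CPM, with the others between 18.2 and 19.5), miR-148b-3p at D7 in replicate 3 (660.0 CPM, with the others between 591 and 595) and miR-152-3p at D0 in replicate 1 (361 CPM, with the others between 154 and 186). In ECs they were miR-148a-5p at D7 in replicate 3 (14.2 CPM, with the others between 9.87 and 10.4), miR-148b-5p at D14 in replicate 4 (4.35 CPM, with the others between 7.35 and 7.74) and miR-152-5p at D0 in replicate 1 (37.1 CPM, with the others between 23.7 and 25.8). In FBs it was miR-152-5p at D1 in replicate 2 (73.4 CPM, with the others between 36.6 and 42.5).

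Among ECs, FBs and HCs, the change against D0 differed between cell types in 12 tests of the difference itself (edgeR, log2 scale, adjusted p in brackets). For miR-148a-3p the EC minus FB difference was -1.92 at D7 (0.016) and -1.97 at D14 (0.023). For miR-152-3p the EC minus HC difference was 0.98 at D1 (0.024) and 1.37 at D3 (0.00030), and the FB minus HC difference 1.03 at D1 (0.0099) and 1.62 at D3 (3.2e-05). For miR-152-5p the FB minus HC difference was 1.53 at D1 (0.0082), 1.52 at D3 (0.0061) and 1.36 at D7 (0.024), and the EC minus HC difference 1.31 at D3 (0.018). For miR-148b-5p at D28 the EC minus FB difference was -1.28 (0.032) and the EC minus HC difference -1.39 (0.023).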

How the results depend on the processing

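Of 524 recomputed single values, 435 kept their direction and side of the threshold, and of 5424 with 1 library left out, 5061 did. The counts that moved by over 1.5 times were as follows. In ECs the arm-by-day calls, 0 in edgeR with TMM, were 1 with DESeq2, 2 with library size as the only scaling, 1 without a filter, 2 with the compared days alone and 0 to 2 with 1 library left out. The EC arms changed over the 6 days, 1 with TMM, were 3 with library size, 0 without a filter and 0 to 4 with 1 library left out. The EC family hairpins whose arm ratio changed, 2, were 0 with a pseudocount of 5, 0 with a minimum of 50 counts, 1 without the library farthest from its group and 1 to 2 with 1 library left out. FB arm-by-day calls, 6, were 11 with library size. All HC hairpins whose arm ratio changed, 24, were 53 without the farthest library and 17 to 53 with 1 left out. The 12 differences of changes between cell types were 19 with DESeq2 and 19 with library size.

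With library size, 17 of 20 tested CM changes, and 4, 8 and 5 of 30 each in ECs, FBs and HCs, had the other sign, called or not, and the cause was not tested. Among values named or called, the CM changes became 1.30 (D1), 2.23 (D7) and 2.27 (D14) for miR-152-3p, 0.55 (D3), 0.22 (D7) and 0.45 (D14) for miR-148a-5p, 0.23 (D3), 0.47 (D7), 0.39 (D14) and 0.10 (D28) for miR-148b-3p, 0.64 (D7) and 0.77 (D14) for miR-152-5p, and 1.02 (D7) and 1.39 (D14) for miR-148b-5p. The CM minus EC differences became -0.40 for miR-152-5p, -0.074 for miR-148b-5p and -0.43 for miR-148b-3p, the CM minus FB differences -0.94 for miR-148a-5p and -1.06 for miR-148b-3p (and, not called with TMM, -1.44 for miR-152-5p and -1.43 for miR-148b-5p), and the CM minus HC differences -1.26 for miR-152-3p and -2.01 for miR-148b-3p, the last also -0.071 with DESeq2 and -0.11 without a filter. The EC minus HC difference of miR-148a-3p became -0.70 with library size, -0.13 with DESeq2, -0.43 without a filter and -0.092 to 0.14 with 1 library left out, and the CM minus HC difference of miR-148b-5p 0.18 at D0 alone. For miR-152-3p in CMs, near 0 with TMM, the D1 change became 0.27 without a filter, 0.017 with the replicate block and 0.089 with those days alone, the D7 change 0.070 with DESeq2 and 0.32 without a filter, and the D14 change 0.0027 without a filter. With 1 library left out it ran from -0.10 to 0.29 at D1, -0.13 to 0.27 at D3 and -0.21 to 0.22 at D7, and the D1 change of the miR-152 arm ratio in CMs from -0.64 to 0.44.

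Whether replicate numbers pair the samples could not be settled, because same-numbered libraries were not compared with differently numbered ones. Deviations of same-numbered libraries from their group means had a median r of -0.033 between days (over 0.1 in 10 of 80 pairs) and 0.021 between cell types (23 of 144). With the replicate block, the arm-by-day calls numbered 9 (CMs), 0 (ECs), 6 (FBs) and 13 (HCs), and in HCs miR-148a-3p at D3 (0.53) and miR-148b-3p at D7 (0.33) no longer passed, and the differences of changes were 12. Tests over all days in CMs are not given under any setting. Differences of changes that involve CMs were computed with TMM and with library size alone, but are not reported here. The other alternatives were not run for them. Depth limits the 5p arms most, which held 0 counts in HC D0 replicate 3 and, for miR-148b-5p, in 2 EC libraries at D28.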
